A study of Medicago ruthenica with 9 samples.

Results

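Small RNA from leaves of Medicago ruthenica, a drought-hardy forage legume, was examined for the miRNA families that trigger phased siRNAs or silence NBS-LRR disease-resistance genes. Members were the names whose family number was that of miR390, miR393, miR472, miR482, miR1507, miR1509, miR1510, miR2109, miR2118 or miR5213, and names without a family number were never members. This gave 32 of the 595 miRNA names and 31 of the 543 sequences in the table, from 9 of the 10 families, and no name carried the number of miR2109. Seedlings were 4 weeks old when they were divided into 3 groups, each with 3 leaf libraries that the study calls biological replicates. The controls (CK) received water at intervals of 3 days. In the drought stress group (DS) watering stopped for 15 days, and in the rewatering group (RW) it stopped for as long and the leaves were taken 2 days after it began again. RW leaves were thus older than CK and DS leaves at harvest, and age and rewatering cannot be told apart in comparisons with RW. Several plants shared a pot, and the sources used here do not say how many plants made up a library. The table holds miRNAs only, so the leaf label could not be checked against leaf mRNA markers.

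NBS-LRR genes encode intracellular immune receptors, and plants keep their transcripts in check with miRNAs of the miR482 and miR2118 superfamily, to which miR472 belongs. These miRNAs pair with the sequence that encodes the P-loop, a nucleotide-binding motif shared by the receptors, so that 1 miRNA can reach many receptor genes. In legumes, miR1507 and miR2109 also target NBS-LRR transcripts, as miR1510 does in soybean. A miRNA of 22 nt, in place of the usual 21 nt, tends to recruit an RNA-dependent polymerase to the cut transcript, which is then diced into phased secondary siRNAs (phasiRNAs) of 21 nt. The route of miR390 differs: bound to the Argonaute protein AGO7, it starts the production of TAS3 siRNAs that silence auxin response factors. miR393 silences the TIR1/AFB auxin receptors, and its 22-nt form can trigger phasiRNAs from them in Arabidopsis.

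The sequences of the most abundant members, and of those with the largest differences between groups, are given 5′ to 3′ as the deposited table lists them, with T for U. Capitals mark the seed, bases 2 to 8, which was used here to group the members. In a name, the first letters give the species of the miRBase entry (mtr for Medicago truncatula, nta for tobacco, lja for Lotus japonicus, gma for soybean, ptc for poplar). MIR with p5 or p3 is an arm predicted from a known hairpin, L and R give bases lost or gained at the left or right end, and ss gives substitutions.
mtr-miR2118: tTACCGATtccacccattccta
nta-miR482a: tTTCCAATtccacccattccta
mtr-miR482-3p_L-1R+2: tTACCTACacctcccatgccta
mtr-MIR1510a-p5_1ss21AT: tTACCCATtcctcccatccct
mtr-MIR1510b-p5_1ss22CT: tCCCTACCatgtggactccatt
mtr-miR1510b-3p_1ss8CA: aCATGGTAggtatccctggaa
mtr-miR5213-5p: tACGTGTGtcttcacctctgaa
mtr-miR5213-3p_1ss8CT: cAGAGTGTagatacacgcatc
mtr-miR1507-3p: cCTCGTTCcatacatcatctag
lja-miR390a-5p: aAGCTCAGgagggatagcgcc
lja-miR390a-3p: cGCTATCCatcctgagtttca
mtr-miR393a_R+1: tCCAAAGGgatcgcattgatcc
ptc-miR472a_R-1_2ss2TC10CT: tCTTCCCTattccacccatcc
gma-miR1509b_2ss8AG18GA: tTAATCAGggaaatcacagtt
mtr-MIR2118-p5: gTGAAAGAgcttgaggaagttatg

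The 31 sequences carried 24 different seeds. The seed TTCCAAT was shared by nta-miR482a, its 19-nt form and nta-MIR482c-p3_2ss18TA19CT, and CTTCCCT joined ptc-miR472a_R-1_2ss2TC10CT with gma-miR482b-3p across families. The 4 most abundant members had different seeds and yet the same base at 15 of 21 positions. mtr-miR2118 and nta-miR482a were identical at 20 of 22 positions and differed by T3A and A6G, written as the base in nta-miR482a, the position from its 5′ end and the base in mtr-miR2118. mtr-miR2118 and the predicted arm mtr-MIR1510a-p5_1ss21AT were identical at 18 of 21 positions.

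What these members shared was a stretch of 8 bases, CCNCCCAT, where N is any base. It was chosen as the motif of the miR482 and miR2118 group, so its high share in those families follows from that choice and is no independent result. It was searched on the single strand that the table gives, with no other motif. It stood in 14 of the 31 member sequences (45.2%) and in 15 of all 543 sequences (2.76%), or 1 of the 512 sequences that are not members (0.195%). Of the 15 member sequences of miR472, miR482 and miR2118, 13 held it (86.7%), and so did mtr-MIR1510a-p5_1ss21AT, a name of another family. Among sequences of 22 nt, 8 of 58 held it (13.8%), and among those of 21 nt, 5 of 171 did (2.92%). In the 4 abundant members it lay at bases 10 to 17, and here the capitals mark it.
mtr-miR2118: ttaccgattCCACCCATtccta
nta-miR482a: tttccaattCCACCCATtccta
mtr-miR482-3p_L-1R+2: ttacctacaCCTCCCATgccta
mtr-MIR1510a-p5_1ss21AT: ttacccattCCTCCCATccct
A match describes the letters only, and target transcripts were not analysed here.

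Values are normalized read counts, that is, reads multiplied by 1 factor per library by the authors, and they summed to 1237470 to 1718280 per library over all names. The smallest listed value was 0.652 to 1.55 in a CK library, 2.30 to 3.09 in an RW library and 3.94 to 4.21 in a DS library, and a level that is listed in CK can stand as 0 in DS. Between 25 and 26 members were above 0 in each CK library, 18 to 20 in DS and 21 to 26 in RW, beside 423 to 489, 283 to 305 and 347 to 376 of all names. A set of 10 names was picked by family alone as possible fragments of rRNA or tRNA. It held 0.482 to 0.609% of the table in CK libraries, 1.08 to 2.28% in DS and 1.81 to 2.35% in RW. Whether these names are such fragments was not tested, and the set is no measure of RNA quality. The part of these names in the results was not tested either. Because whole leaves were sampled, fewer cells that make a miRNA and less of it per cell cannot be told apart.

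The members together held a similar part of the table in the 3 groups. Their sum was 9.05, 7.41 and 5.79% of the listed signal in the CK libraries, 8.43, 9.36 and 6.47% in DS and 7.15, 8.91 and 8.23% in RW. The group means of 7.42 ± 1.63%, 8.09 ± 1.47% and 8.10 ± 0.892% (CK, DS and RW, SD, n = 3) lay within each other's spread. mtr-miR2118, nta-miR482a, mtr-miR482-3p_L-1R+2 and mtr-MIR1510a-p5_1ss21AT made up 91.6 to 97.7% of this sum (median 95.4%). By mean level they stood in places 4, 7, 6 and 10 of the 595 names. First place among the members went to mtr-miR2118 in 5 libraries, to mtr-miR482-3p_L-1R+2 in 3 and to nta-miR482a in 1. The other 28 names summed to 5564, 7659 and 6745 normalized reads in the CK libraries, 4991, 4609 and 3849 in DS and 4645, 3465 and 4902 in RW. All DS and RW libraries were below all CK libraries in this remainder in normalized reads. As a share of the whole table the groups overlapped, with CK replicate 1 below DS replicate 1 and RW replicate 3. The means of that share were 0.487 ± 0.125%, 0.324 ± 0.0601% and 0.317 ± 0.101% (CK, DS and RW, SD, n = 3). The grouping was made after its values were seen and was therefore not tested.

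**Figure D1:**
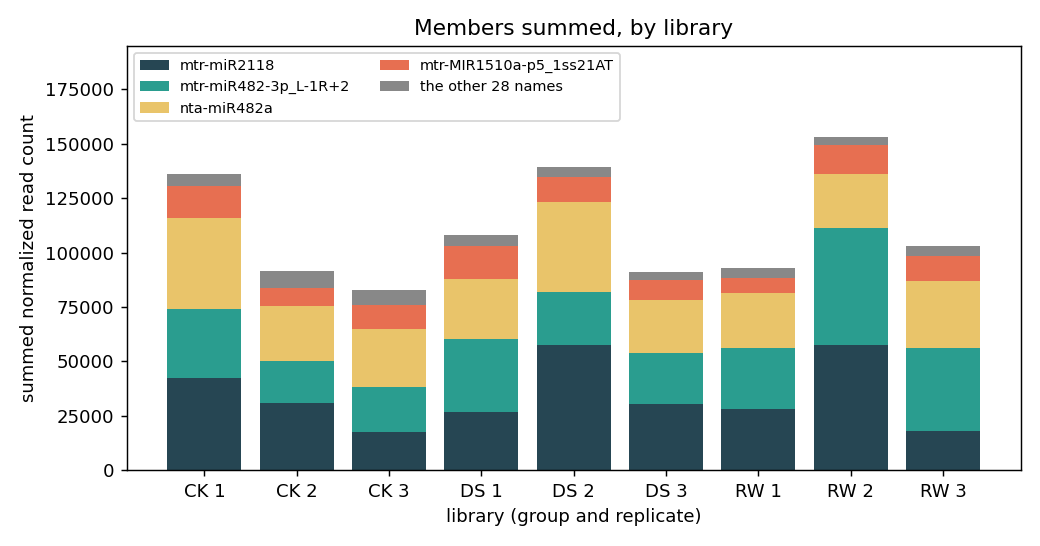
Summed normalized read count of the 32 members in each of the 9 libraries, with the 4 most abundant names and the other 28 names as stacked parts of a bar. The 4 names make up 91.6 to 97.7% of every bar, and their order differs between libraries of the same group.

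The families formed most of the 22-nt miRNA signal of the leaf and little of the 21-nt signal. There were 12 members of 22 nt among 61 such names, and they held 70.3 to 82.1% of all 22-nt signal in a library (median 76.7%). The 15 members of 21 nt, among 184 such names, held 0.753 to 1.48% of the 21-nt signal (median 1.03%). As a share of the whole table, the CK, DS and RW means were 6.43 ± 1.58%, 7.09 ± 1.37% and 7.22 ± 0.795% for the 22-nt members and 0.983 ± 0.106%, 0.998 ± 0.294% and 0.870 ± 0.204% for those of 21 nt (SD, n = 3). Differences between these means were smaller than the larger SD of the groups compared. Of the remaining members, 3 had 19 nt, 1 had 18 nt and 1 had 24 nt. A first base of T was found in 22 of the 32 names and in 11 of the 12 of 22 nt, where mtr-miR1507-3p was the exception with C.

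Among the 20 members that could be tested, 1 was lower in drought-stressed than in control leaves, the predicted 5p arm of MIR1510b, and no member differed between rewatered leaves and either other group by the test. A member was tested where it reached 5 normalized reads in at least 3 of the 9 libraries, as 339 of all names did, and the 12 that did not had at most 56.5 in any library. The test was limma on log2 (value + 1), in 1 fit of all 9 libraries, with Benjamini-Hochberg adjustment over the 339 names and a threshold of 0.05. It measures the spread between these libraries. In DS vs. CK, 1 member fell and 0 rose, while 3.24% of all tested names fell and 2.06% rose. At an unadjusted p under 0.05, 3 members were lower in DS and 0 were higher (background 11.2% lower and 8.26% higher). The median log2 fold change of the members was -0.36, as was that of all tested names, and 14 of the 20 were below 0 (background 65.2%). The DS values lay below all CK values for 5 members and above them for 1 (background 18.3% and 9.73%). Such counts, here and below, are in the deposited normalized reads, and some separations are lost in shares of the table total.

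In DS vs. RW, 0 members passed in either direction (background 2.36%), and the smallest adjusted p by limma was 0.234. At an unadjusted p under 0.05, 2 members were lower in DS (background 8.55%), MIR1510b-p5 and lja-miR390a-3p, and for both all DS values lay below all RW values (background 9.14%). No member was higher in DS by either measure (background 5.6% and 6.19%), and 9 of 20 were below 0 (background 58.7%). The median was 0.04 on the log2 scale, beside -0.16 for all tested names. In RW vs. CK, 0 members passed (background 5.31%, or 2.95% higher and 2.36% lower), with a smallest adjusted p by limma of 0.122. An unadjusted p under 0.05 was reached by 4 members that were lower in RW and 1 that was higher (background 8.85% and 6.78%, together 15.6%). For 3 members all RW values lay below all CK values (background 10.9%), and for 0 they lay above (background 10.3%). Of the 20, 15 were below 0 (background 58.7%), and the median was -0.22 beside -0.11 for all names. The 3 comparisons share their groups and are not independent of each other. A joint limma test of the 3 groups also passed 1 of the 20 members, MIR1510b-p5 (adjusted p = 0.0189, background 7.08%). These shares of called members are those of a small list and stand near the background in every comparison.

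**Figure D2:**
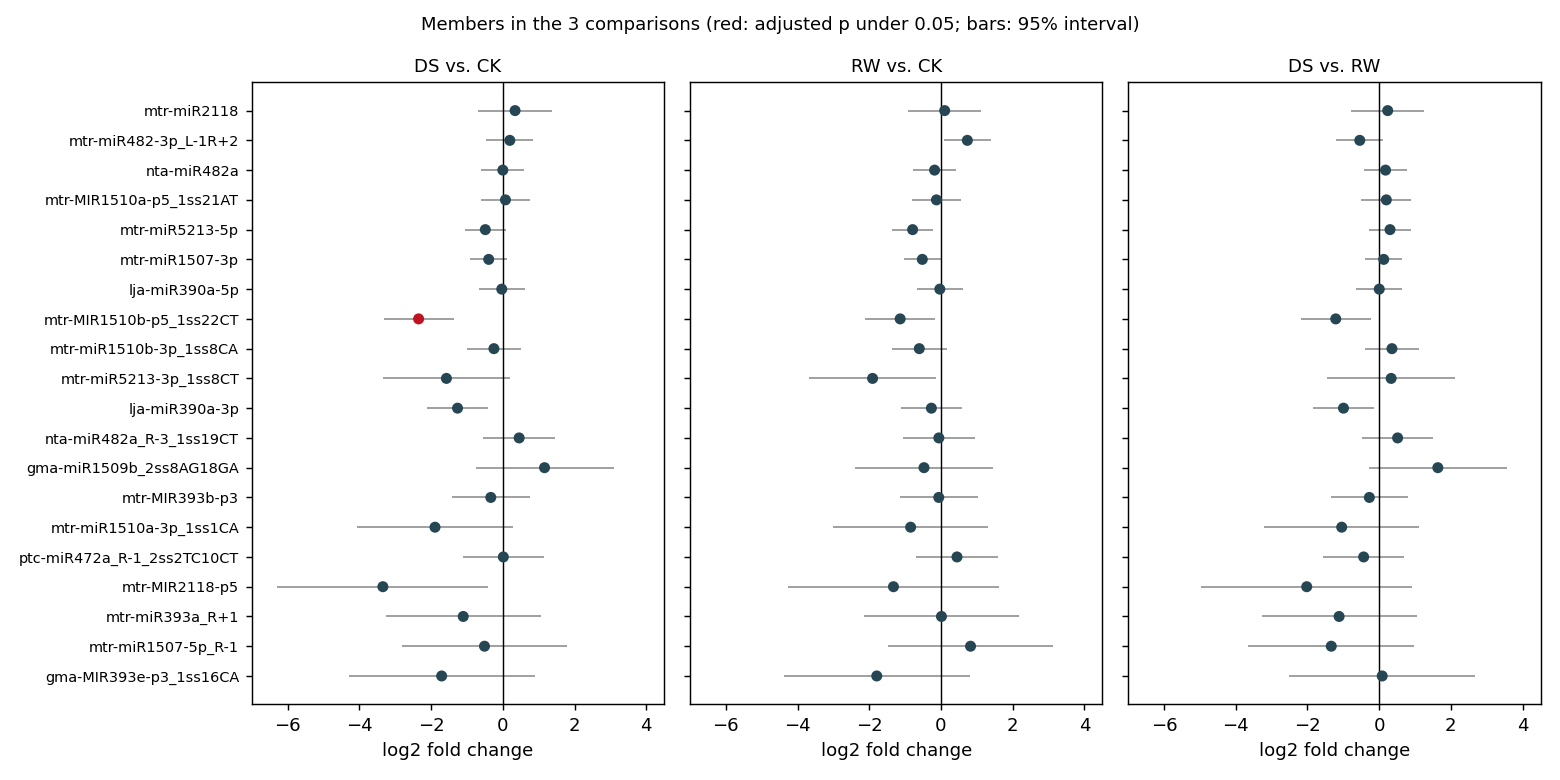
log2 fold change of the 20 tested members, with 1 panel per comparison (x axis, limma on log2 (value + 1)), with bars for the 95% interval and a line at 0. The predicted 5p arm of MIR1510b in DS vs. CK, at -2.35, is the single red point, which marks an adjusted p under 0.05.

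MIR1510b gave the clearest difference between groups, and the call was for 1 arm of the hairpin. The predicted 5p arm, mtr-MIR1510b-p5_1ss22CT, was 22 nt long and stood at 684, 1434 and 645 normalized reads in the CK libraries, at 249, 103 and 184 in DS and at 265, 374 and 595 in RW. In normalized reads the 3 groups did not overlap, with DS lowest and CK highest. As a share of the table total, DS stayed lowest, but RW replicate 3 lay above CK replicate 1 and CK replicate 3. In DS vs. CK it fell by 2.35 on the log2 scale (SE 0.44, 95% interval -3.33 to -1.37, limma adjusted p = 0.0144), a 5.09-fold difference on the log2 (value + 1) scale. The call was lost without CK replicate 1 (-2.51, adjusted p = 0.0577) or without CK replicate 2 (-1.98, adjusted p = 0.0921), and the range over the alternatives was 0.00389 to 0.0921. Its log2 fold change was -1.21 in DS vs. RW (SE 0.44, interval -2.19 to -0.23, adjusted p = 0.234) and -1.14 in RW vs. CK (SE 0.44, interval -2.11 to -0.16, adjusted p = 0.235), neither of which passed.

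The annotated 3p arm of the same hairpin, mtr-miR1510b-3p_1ss8CA of 21 nt, did not hold the CCNCCCAT stretch, and neither did the 5p arm. It was measured at 395, 605 and 594 in CK, 681, 384 and 323 in DS and 329.5, 276 and 442 in RW. Its groups overlapped in each comparison, with a log2 fold change of -0.25 in DS vs. CK (SE 0.35, interval -1.01 to 0.51, limma adjusted p = 0.693) and -0.61 in RW vs. CK (SE 0.35, interval -1.37 to 0.16, adjusted p = 0.475). A run of 10 bases of one arm was the reverse complement of the other. It lay at bases 3 to 12 of the 5p arm and 1 to 10 of the 3p arm. The 5p sequence runs on past the 5′ end of the 3p sequence, so the run does not show the 2 as partners in 1 duplex. Capitals mark the run.
mtr-MIR1510b-p5_1ss22CT: tcCCTACCATGTggactccatt
mtr-miR1510b-3p_1ss8CA: ACATGGTAGGtatccctggaa
Within a library, the ratio of the 5p to the 3p arm does not depend on the scaling factor. It was 1.73, 2.37 and 1.08 in the CK libraries, 0.366, 0.268 and 0.569 in DS and 0.804, 1.36 and 1.35 in RW. The 5p arm was thus the more abundant in all CK libraries and the less abundant in all DS libraries, and the RW ratios lay above those of DS and overlapped those of CK. The ratio was formed after the arm values had been seen and is given without a test.

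**Figure D3:**
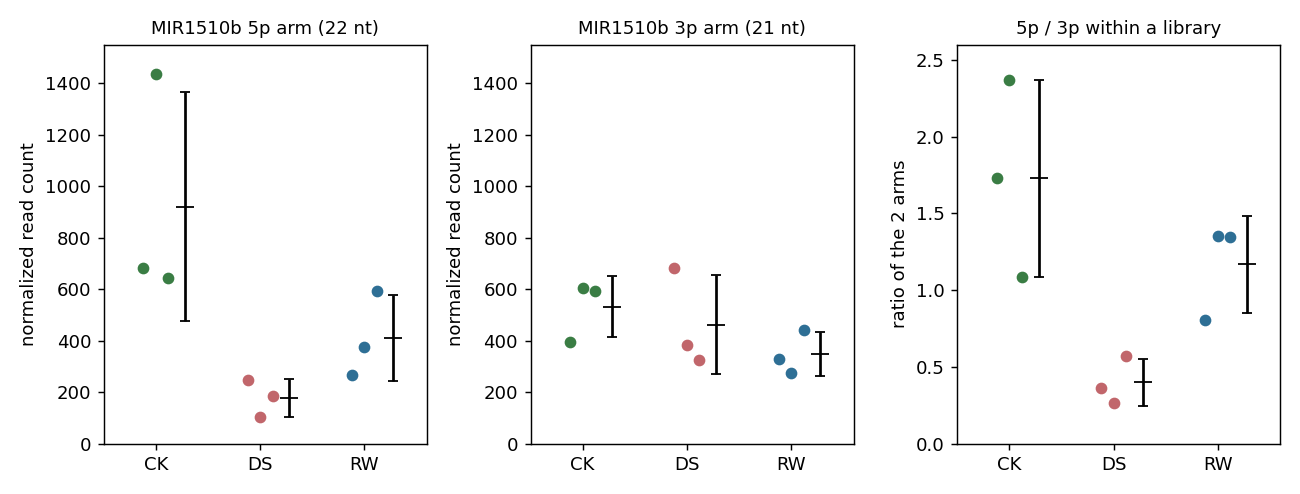
Normalized read count of the predicted 5p arm and the 3p arm of MIR1510b, and the ratio of 5p to 3p within each library, by group. Each library is 1 point, and a tick with an error bar gives the group mean and SD (n = 3). The ratio lies at 1.08 to 2.37 in CK, at 0.268 to 0.569 in DS and at 0.804 to 1.36 in RW, and the 3p arm overlaps between groups.

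In the MIR1510a hairpin the predicted 5p arm made up nearly all of the signal. This arm, mtr-MIR1510a-p5_1ss21AT of 21 nt, stood at 14811, 8343 and 11324 in the CK libraries, 14854, 11836 and 9266 in DS and 6929, 13529 and 11462 in RW. The groups overlapped, and the DS vs. CK log2 fold change was 0.07 (SE 0.32, interval -0.62 to 0.77, limma adjusted p = 0.925). The 3p arm, mtr-miR1510a-3p_1ss1CA, reached at most 0.327% of the 5p arm in any library. It was listed at 16.7, 27.3 and 26.7 in CK, at 15.8, 15.2 and 0 in DS and at 11.0, 8.53 and 19.7 in RW. All DS values lay below all CK values in normalized reads, but as a share of the table total DS replicate 1 lay above CK replicate 1. The log2 fold change of -1.89 (SE 0.98, interval -4.05 to 0.27, limma adjusted p = 0.297) did not pass, and it was -0.54 without DS replicate 3, the library listed at 0.

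Of the 3 abundant miRNAs of 22 nt in the miR482 and miR2118 superfamily, mtr-miR2118 and nta-miR482a varied as much between libraries of a group as between groups. mtr-miR2118 was counted at 42588, 30860.5 and 17570.1 in the CK libraries, 26644, 57559 and 30596 in DS and 27928, 57401 and 17840.1 in RW. Its lowest and highest libraries in RW and in CK differed more than any pair of group means. On the log2 scale the change was 0.34 in DS vs. CK (SE 0.46, interval -0.68 to 1.36, limma adjusted p = 0.693) and 0.10 in RW vs. CK (SE 0.46, interval -0.92 to 1.13, adjusted p = 0.946), and the RW vs. CK value turned to -0.35 without RW replicate 2. nta-miR482a stood at 41798, 25281 and 26537 in CK, 27892, 41197 and 24387 in DS and 25382, 25024 and 30439 in RW. It had a log2 fold change of -0.00032 in DS vs. CK (SE 0.27, interval -0.60 to 0.60, limma adjusted p = 0.999) and -0.18 in RW vs. CK (SE 0.27, interval -0.78 to 0.42, adjusted p = 0.819), and its groups overlapped.

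mtr-miR482-3p_L-1R+2 was the 1 member with an unadjusted p under 0.05 that was higher in RW than in CK. Its values were 31326, 19491 and 20661 in the CK libraries, 33504, 24307 and 23218 in DS and 28099.9, 53744 and 38527 in RW. CK replicate 1 lay within the RW range, so the groups overlapped. The log2 fold change was 0.74 in RW vs. CK (SE 0.30, interval 0.08 to 1.39, limma adjusted p = 0.256), 0.19 in DS vs. CK (SE 0.30, interval -0.46 to 0.85, adjusted p = 0.727) and -0.54 in DS vs. RW (SE 0.30, interval -1.19 to 0.11, adjusted p = 0.375). Set against nta-miR482a in the same library, the groups CK and RW came apart. The ratio of mtr-miR482-3p_L-1R+2 to nta-miR482a was 0.749, 0.771 and 0.779 in CK, 1.20, 0.590 and 0.952 in DS and 1.11, 2.15 and 1.27 in RW. nta-miR482a was the more abundant of the pair in all CK libraries and the less abundant in all RW libraries, and DS held both orders. This ratio too was formed after the values had been seen and has no test. The ratio of mtr-miR2118 to nta-miR482a did not separate any groups, at 1.02, 1.22 and 0.662 in CK, 0.955, 1.40 and 1.25 in DS and 1.10, 2.29 and 0.586 in RW.

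Forms that differ from an abundant member by 1 base were rare. The 22-nt form mtr-miR2118_1ss18TG differed from mtr-miR2118 by T18G and reached at most 0.0408% of it in any library. mtr-miR482-3p_L-1R+2_1ss19GA differed from mtr-miR482-3p_L-1R+2 by G18A, counted from the 5′ end of the trimmed form, and reached at most 0.0160% of it. Both forms stood at 12.5 or less in every library. The 19-nt form nta-miR482a_R-3_1ss19CT, which lacks 3 bases at the 3′ end and has C19T, was the most frequent, at up to 0.341% of nta-miR482a. It stood at 58.2, 33.5 and 65.7 in CK, 63.9, 64.0 and 82.1 in DS and 39.6, 85.3 and 33.3 in RW, with overlapping groups.

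mtr-MIR2118-p5, a predicted arm of 24 nt, was placed on the same transcript as mtr-miR2118. Its longest stretch complementary to mtr-miR2118 was 5 bases, so pairing of the 2 as opposite arms was not shown. mtr-MIR2118-p5 was listed at 31.3, 22.9 and 14.1 in the CK libraries, 0, 10.1 and 0 in DS and 32.2, 21.3 and 0 in RW. It was at most 0.115% of mtr-miR2118. All DS values lay below all CK values, and the CK values were above the smallest value that the DS libraries list. The log2 fold change of -3.35 in DS vs. CK had an SE of 1.34 (interval -6.29 to -0.40, unadjusted p = 0.0295, limma adjusted p = 0.212) and did not pass. Its size moved with the treatment of the zeros: it was -1.76 with values under 4.21 raised to that level, -1.89 with a pseudocount of 5 and -4.50 without DS replicate 2.

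**Figure D4:**
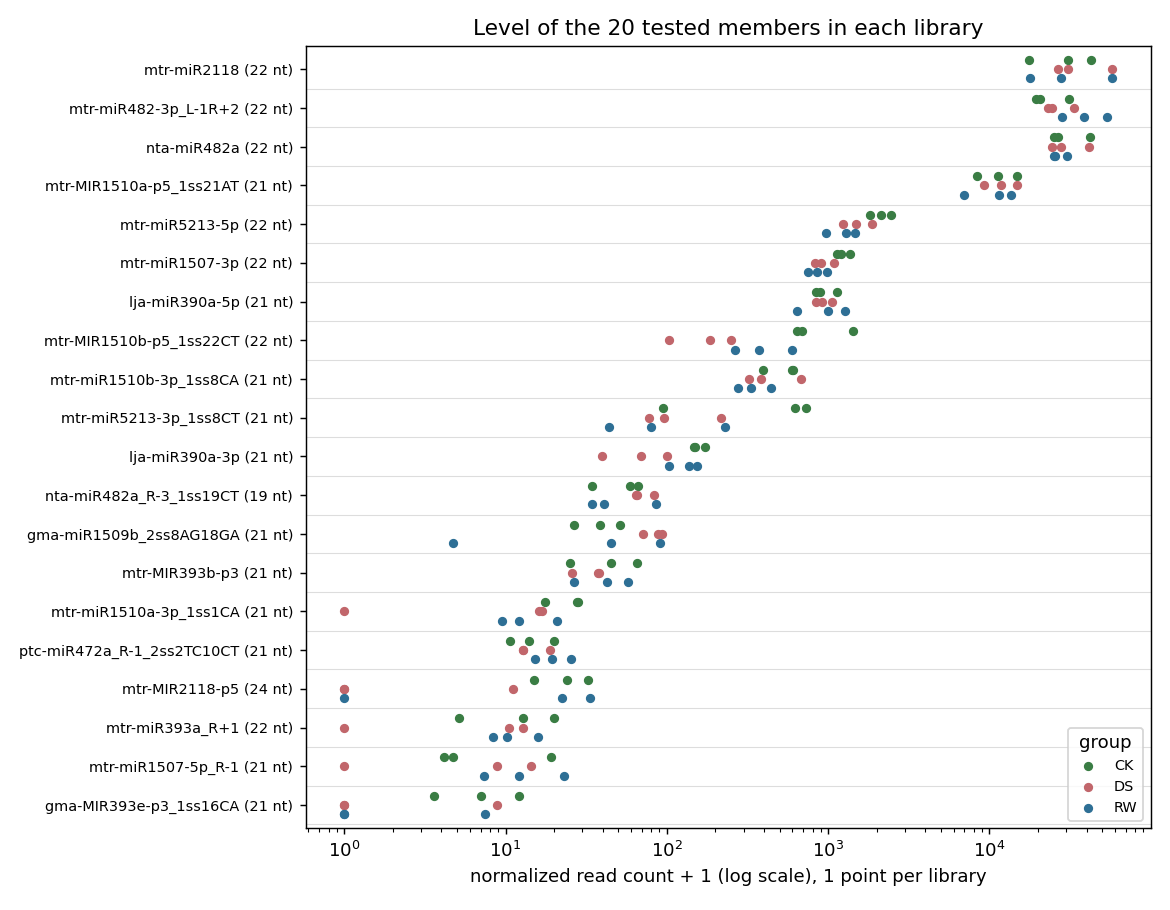
Normalized read count + 1 on a log scale for each of the 20 tested members, with 1 point per library and the groups CK, DS and RW in separate colours. The 4 most abundant members lie between 6929 and 57559, and mtr-MIR1510b-p5_1ss22CT is the member whose 3 groups lie fully apart in these counts. As a share of the table total, its CK and RW groups overlap.

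miR390 split by arm. lja-miR390a-5p, the mature strand that AGO7 binds, was listed at 845, 890.1 and 1142 in the CK libraries, 1050.1, 917 and 839 in DS and 991, 641 and 1264 in RW. Its groups overlapped, with a DS vs. CK log2 fold change of -0.03 (SE 0.29, interval -0.67 to 0.61, limma adjusted p = 0.978). lja-miR390a-3p, the opposite strand, stood at 146, 149 and 171 in CK, 99.3, 38.8 and 67.8 in DS and 152, 136 and 102 in RW. All DS libraries were below all CK and all RW libraries. Its log2 fold change was -1.26 in DS vs. CK (SE 0.39, interval -2.11 to -0.41, unadjusted p = 0.00744, limma adjusted p = 0.0900) and did not pass, except without DS replicate 1 (-1.58, adjusted p = 0.0382, range over the alternatives 0.0382 to 0.274). In DS vs. RW it was -0.99 (SE 0.39, interval -1.84 to -0.15, adjusted p = 0.274), and in RW vs. CK it was -0.27 (SE 0.39, interval -1.12 to 0.58, adjusted p = 0.790).

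Within a library, the 3p arm of miR390a amounted to 17.3, 16.8 and 14.9% of the 5p arm in CK, 9.46, 4.23 and 8.09% in DS and 15.3, 21.3 and 8.11% in RW. The DS shares lay below all CK shares, and RW replicate 3 lay within the DS range. The 3p arm of miR5213 had no such separation, at 5.16, 29.3 and 29.3% of its 5p arm in CK, 6.39, 11.5 and 6.20% in DS and 15.7, 4.42 and 6.10% in RW. Both shares were formed after the arm values had been seen and have no test.

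**Figure D5:**
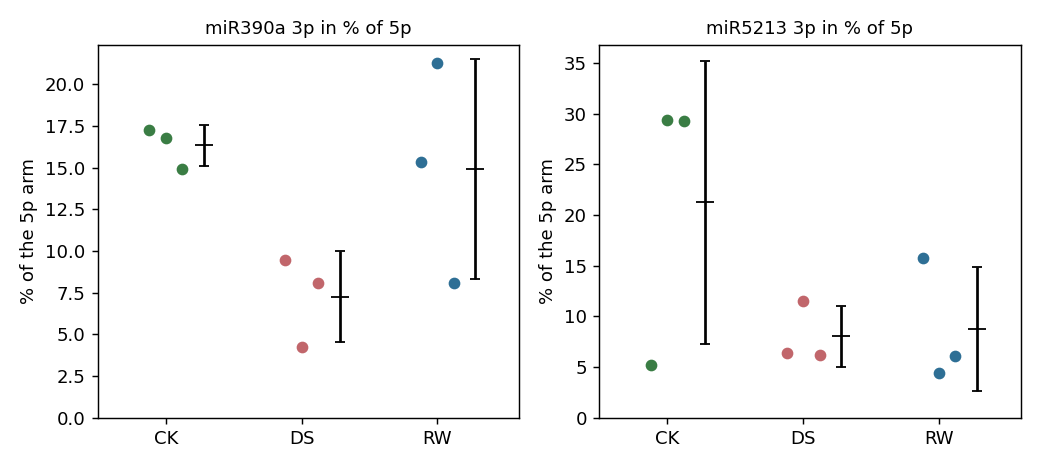
The 3p arm in percent of the 5p arm of miR390a and of miR5213, by group. Each library is 1 point, and a tick with an error bar gives the group mean and SD (n = 3). For miR390a the DS libraries lie at 4.23 to 9.46% and the CK libraries at 14.9 to 17.3%, and for miR5213 the groups overlap.

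mtr-miR5213-5p, a legume miRNA of 22 nt, had the smallest adjusted p of the members in RW vs. CK. It was measured at 1811, 2467 and 2117 in the CK libraries, 1480.5, 1869 and 1237 in DS and 1457, 966 and 1294 in RW. All RW libraries were below all CK libraries, and DS replicate 2 lay within the CK range. The log2 fold change was -0.79 in RW vs. CK (SE 0.26, interval -1.37 to -0.22, unadjusted p = 0.0115, limma adjusted p = 0.122), -0.49 in DS vs. CK (SE 0.26, interval -1.06 to 0.09, adjusted p = 0.297) and 0.30 in DS vs. RW (SE 0.26, interval -0.27 to 0.88, adjusted p = 0.648). The 3p arm, mtr-miR5213-3p_1ss8CT, spread widely within CK, at 93.4, 724 and 619.8, with 94.6, 216 and 76.8 in DS and 229, 42.6 and 79.0 in RW. Its log2 fold changes of -1.57 in DS vs. CK (SE 0.81, interval -3.36 to 0.21, limma adjusted p = 0.297) and -1.91 in RW vs. CK (SE 0.81, interval -3.69 to -0.13, adjusted p = 0.280) did not pass. Without CK replicate 1, the lowest CK library, they were -2.52 (adjusted p = 0.118) and -2.85 (adjusted p = 0.0655), which did not pass either.

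mtr-miR1507-3p, which targets NBS-LRR transcripts in legumes, had 22 nt. It stood at 1371, 1127 and 1200.0 in the CK libraries, 1091, 827 and 905 in DS and 987, 744 and 854 in RW. In these normalized reads all DS and all RW values lay below all CK values. As a share of the table total, DS replicate 1 lay above CK replicate 3. The log2 fold change was -0.39 in DS vs. CK (SE 0.24, interval -0.91 to 0.13, limma adjusted p = 0.371), -0.52 in RW vs. CK (SE 0.24, interval -1.04 to -0.00094, unadjusted p = 0.0497, adjusted p = 0.317) and 0.13 in DS vs. RW (SE 0.24, interval -0.39 to 0.65, adjusted p = 0.820). None passed. Its 5p arm, mtr-miR1507-5p_R-1, was listed at 3.13, 3.72 and 18.1 in CK, 7.88, 13.5 and 0 in DS and 22.1, 6.40 and 11.1 in RW, with overlapping groups. A run of 12 bases of one arm was the reverse complement of the other, in capitals.
mtr-miR1507-5p_R-1: agagtTGTATGGAACGAaaga
mtr-miR1507-3p: ccTCGTTCCATACAtcatctag

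gma-miR1509b_2ss8AG18GA was the 1 member with all DS values above all CK values. It was listed at 37.6, 50.2 and 25.4 in CK, 92.2, 86.8 and 70.5 in DS and 44.2, 3.73 and 90.1 in RW. The log2 fold change was 1.16 in DS vs. CK (SE 0.87, interval -0.76 to 3.09, limma adjusted p = 0.482) and 1.64 in DS vs. RW (SE 0.87, interval -0.29 to 3.56, adjusted p = 0.368), and the spread of the RW libraries was the widest of its groups. Without RW replicate 2, the lowest library, the DS vs. RW value was 0.38. The second miR1509 name, gma-miR1509a_R-3_1ss8AC, was above 0 in RW replicate 3 alone, at 13.6.

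The families miR393 and miR472 were scarce in these leaves. mtr-miR393a_R+1, the 22-nt miRNA of the auxin receptors, stood at 4.17, 11.8 and 19.1 in CK, 9.46, 11.8 and 0 in DS and 9.20, 14.9 and 7.40 in RW, all with overlapping groups. mtr-MIR393b-p3, a predicted arm, was its most abundant family member, at 24.0, 64.5 and 44.3 in CK, 36.3, 37.1 and 25.0 in DS and 41.4, 25.6 and 56.8 in RW, and gma-MIR393e-p3_1ss16CA was at 11.2 or less. ptc-miR472a_R-1_2ss2TC10CT, of 21 nt, was listed in all 9 libraries, at 9.65, 13.0 and 19.1 in CK, 11.8, 11.8 and 17.9 in DS and 14.3, 24.5 and 18.5 in RW. The groups of both overlapped. csi-miR393b-5p_L-1R+1_1ss22CT was listed at 3.13, 4.34 and 7.04 in CK and at 0 in all DS and RW libraries, values close to the smallest that those libraries list, and no fold is given.

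Of the 12 members that did not reach the limit for testing, 7 belonged to miR482, and they were above 0 in 1 to 5 libraries. RW replicate 2 alone held gma-miR482b-3p, at 56.5, mes-MIR482b-p5_1ss13TC, at 13.9, and mdm-miR482b_R-1_2ss11CG20TG, at 6.40. pgi-miR2118_R-1_2ss6TG21AC and pgi-MIR2118-p5_2ss6TG21AC had the same sequence and the same values, so that both names describe 1 RNA. In all, 15 members were above 0 in every library.

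The miRNAs that act on the silencing machinery gave a comparison outside the members. miR162 targets the Dicer gene DCL1, miR168 targets AGO1, and miR2275 triggers phasiRNAs of 24 nt in the anthers of grasses and other plants. The table held 3 names of miR162, 4 of miR168 and 1 of miR2275, the last above 0 in RW replicate 2 alone. Of the 5 that could be tested, 0 were higher and 0 were lower in each comparison by limma, where 5.31% of all tested names were called in each comparison with CK and 2.36% in DS vs. RW. Their median log2 fold change was -0.32 for DS vs. CK (-0.36 over all tested names), 0.70 for DS vs. RW (-0.16) and -1.02 for RW vs. CK (-0.11), and each median is that of 5 names only.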

How the data were processed

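The 9 libraries were made from leaf total RNA with a TruSeq small RNA kit. Per the labels and the methods, the authors removed adapters, repeats and structural RNAs with ACGT101-miR (version not given), kept sequences of 18 to 25 nt and named them against miRBase 22.0. The deposited signal is the read count after the authors multiplied each library by 1 factor, whose choice the sources used here do not give. Depth in whole reads was not recovered, so no counting interval is given. No genome was used, so no coordinates are given.

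The 667 lines were reduced to 1 line for each of 595 names. Names with at least 5 in at least 3 libraries were tested with limma 3.58.1 (R 4.3.3, mean-variance trend, log2 (value + 1), 1 fit of 9 libraries), adjusted by Benjamini-Hochberg within each comparison, threshold 0.05. Intervals are at 95%. Every adjusted p is from limma. Sums, ratios, sequence matches and figures were made in Python 3.11.15 (pandas 2.3.3, numpy 2.4.6, matplotlib 3.10.9). Members that passed a test, the most abundant member of each family and its other arm are given with their value in each library, and fold changes are given for 14 members. The members, lists and tests were chosen with earlier results of these data known. Alternatives were other pseudocounts, filters, scalings, fits of 2 groups, a replicate block, a per-miRNA t-test modelled on that of the methods (unadjusted), and each library left out in turn. The methods name a t-test only, and its unequal variances and the filter before it were chosen here. Neither the labels nor the methods say that replicate numbers pair samples, and the main fit did not pair them.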

Additional observations from a re-analysis of the deposited data

How the results depend on the processing

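The fall of mtr-MIR1510b-p5_1ss22CT in DS vs. CK kept its direction under every alternative run and passed in 18 of 20 limma alternatives (log2 fold change -2.63 to -1.98). The per-miRNA t-test modelled on that of the methods, on unlogged values without adjustment, did not call it (log2 ratio -2.36). It is named the test of the methods below, although its variances and filter were chosen here. That test called 3 other members in DS vs. CK (lja-miR390a-3p, mtr-MIR2118-p5 and gma-miR1509b_2ss8AG18GA), 2 in RW vs. CK (mtr-miR5213-5p and mtr-miR1507-3p) and 0 in DS vs. RW. Without a filter, limma called 2 members in DS vs. CK and 1 in RW vs. CK, where csi-miR393b-5p_L-1R+1_1ss22CT, listed at 0 in DS and RW, was added. With each library left out in turn, members called were 0 to 2 in DS vs. CK and 0 in the other comparisons. Over the whole table the main counts of 18, 8 and 18 moved to 11 in DS vs. CK and 4 in DS vs. RW with only the groups compared, to 4 in DS vs. RW with a minimum of 20 or with only names above 0 in all libraries, to 29 in RW vs. CK where low values were set to 1 shared minimum, and, by the test of the methods, to 32 in RW vs. CK and 20 in DS vs. RW. The split of 7 higher and 11 lower in DS vs. CK became 12 and 8 with a minimum of 20 or low values raised, 12 and 11 with a pseudocount of 5, 14 and 3 over names above 0 in all libraries, and 3 and 20 by the test of the methods. With a library left out, the table's calls ranged from 0 to 23 in DS vs. CK (0 without CK replicate 1, 2 without CK replicate 2, 5 without CK replicate 3 and 11 without RW replicate 1), 0 to 14 in DS vs. RW (0 without RW replicate 1 or RW replicate 2) and 5 to 22 in RW vs. CK (5 without CK replicate 1). The cause was not tested. Values near 0 changed sign. With median-of-ratios scaling, lja-miR390a-5p and nta-miR482a came to 0.023 and 0.052 in DS vs. CK. With a library left out, the DS vs. CK log2 fold change was -0.14 to 0.28 for mtr-MIR1510a-p5_1ss21AT, -0.12 to 0.10 for lja-miR390a-5p, -0.22 to 0.23 for nta-miR482a and -0.0074 to 0.63 for mtr-miR2118, and in RW vs. CK it was -0.31 to 0.051 for nta-miR482a and -0.35 to 0.49 for mtr-miR2118. Of 606 alternative values of single members, 584 kept their direction and their side of the threshold. This count is no measure of robustness. Other filters, the replicate block and a library left out of the third group cannot change a fold change, and most values were not called to begin with. Same-numbered libraries correlated no better (r = -0.15 to 0.06) than others (-0.14 to 0.19), and a fit with the replicate block, which called 17, 7 and 18 names and 1, 0 and 0 members, changed no call of a member. The count test planned for recovered whole reads was not run, since the deposited values were not accepted as such. Listed zeros limit the low members, and 3 libraries per group limit every comparison.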
